A study of Mus musculus with 3 samples.

Results

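The miRNAs described here are those of the imprinted Dlk1-Dio3 region, chosen by name from a list of 52 miRNA names. Rows for either arm of 42 of these names were found, 63 of the 471 rows of the table, and the other 10 names (miR-770, miR-432, miR-341, miR-370, miR-299b, miR-679, miR-654, miR-539, miR-496 and miR-412) are not analysed here. Both arms were present for 21 precursors and 1 arm for the other 21. Levels were measured by small RNA sequencing of mouse colonic mucosa in 3 libraries, 1 per group. The first came from tissue with an intact gene, genotype global mir-10b+/+, labelled healthy (WT). The next had genotype global mir-10b-/-, labelled diabetic (KO). The last, labelled rescue (mimic), was global mir-10b-/- as well and had received an injected mimic of miR-10b-5p. The deletion is global rather than restricted to a cell type, and KO and mimic both carry it. Genotype and the diabetic label change together between WT and KO, and the labels name no control injection. The labels state no age, strain or number of animals per library.

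Values are normalized reads per mature miRNA as the authors deposited them. Each group has 1 library and thus no measure of replicate spread. No significance test was run, every difference is between single libraries, and a row is called higher or lower when it is at least 2-fold apart on the log2(value + 1) scale. As a check of the deletion, WT held 18057 normalized reads of miR-10b-5p, KO 14 and mimic 469. The column totals differed, with 4872446 for WT, 8124898 for KO and 8510085 for mimic, and the sequencing depth is unknown. miRNAs of gut epithelium held 31.7%, 31.6% and 29% of these totals in the same order and those of smooth muscle held 11.8%, 13.1% and 26.4%. Scaling the libraries to the same total would shift each log2 ratio, by -0.74 between KO and WT, by -0.07 between mimic and KO, and by -0.80 between mimic and WT.

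The Dlk1-Dio3 region is an imprinted domain in which the parental chromosomes are used differently. The paternal copy expresses the protein-coding genes Dlk1, Rtl1 and Dio3, and the maternal copy expresses the long noncoding RNAs Meg3, Rian and Mirg together with the miRNAs, which are cut from long precursor transcripts of the same strand. These miRNAs are best known from brain, placenta, embryonic tissue and muscle progenitors, and are generally scarce in adult epithelia.

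The 42 precursors lie on the plus strand of chromosome 12, at chr12:109571990-109743795 of GRCm38 (mm10), a span of 171.806 kb. In the GENCODE annotation of that build, 5 of them (miR-431, miR-433, miR-127, miR-434 and miR-136) lie opposite an exon of Rtl1, at chr12:109589193-109600330 on the minus strand. Another 11 lie within Mirg, at chr12:109729764-109749460 on the plus strand, 7 overlapping its exons and 4 in its introns. The remaining 26 lie in no annotated long transcript. Mature sequences from RefSeq (GRCm38.p6) matched 60 of the 63 rows. Those without one are miR-376c-3p, miR-487b-3p and miR-485-5p.

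The mature sequences of the members that lead the results are given here 5′ to 3′, with the seed (bases 2 to 8, which choose the targets) in capitals. The first set holds 4 abundant members (miR-127-3p, miR-136-3p, miR-300-3p and miR-541-5p) and members that were much lower in mimic than in KO, with miR-381-3p shown for its likeness to miR-300-3p.
miR-127-3p: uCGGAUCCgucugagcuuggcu
miR-136-3p: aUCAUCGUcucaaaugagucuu
miR-300-3p: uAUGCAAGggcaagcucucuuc
miR-381-3p: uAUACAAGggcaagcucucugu
miR-541-5p: aAGGGAUUcugauguuggucacacu
miR-382-5p: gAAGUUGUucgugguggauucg
miR-665-3p: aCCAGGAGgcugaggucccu
miR-485-3p: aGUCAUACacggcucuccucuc
The next set holds the 4 members with the highest ratio of KO to WT at a mean of at least 100, then miR-410-3p and miR-411-3p, whose level in mimic was close to KO, and miR-379-3p for the seed it shares with miR-411-3p.
miR-494-3p: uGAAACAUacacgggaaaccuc
miR-329-5p: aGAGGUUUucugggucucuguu
miR-379-5p: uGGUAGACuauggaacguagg
miR-409-5p: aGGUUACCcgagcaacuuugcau
miR-410-3p: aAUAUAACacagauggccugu
miR-411-3p: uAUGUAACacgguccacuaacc
miR-379-3p: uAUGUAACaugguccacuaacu

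The cluster is not 1 seed family. Its 60 sequenced rows carry 58 different seeds, and 2 seeds are shared. One is AUGUAAC, of miR-379-3p and miR-411-3p, which differ at 2 of 22 positions. The other is UGGAUAU, of miR-376b-5p and miR-376c-5p, which differ at 1 of 22. miR-300-3p and miR-381-3p differ at 3 of 22 positions but have different seeds. The RefSeq sequences of miR-299b-3p and miR-299b-5p are contained in those of miR-299a-3p and miR-299a-5p, so reads of these near-identical miRNAs could have been divided or merged by the authors' counting and their values are uncertain. Members of the miR-376 group are also known for A-to-I editing in brain, which the table does not separate.

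The cluster was a small part of the mucosal miRNAs. Its 63 rows together held 31571 normalized reads for WT, 34014 for KO and 12696 for mimic. As a share of the library, which does not depend on the scaling between libraries, WT stood at 0.648%, KO at 0.419% and mimic at 0.149%. The share in WT was thus 1.55 times that in KO, and the share in KO 2.81 times that in mimic. The order of WT and KO depended on the scale, since the deposited sum was 1.08 times higher in KO while the share was higher in WT. Mimic was lowest on both scales, with a deposited sum 2.68-fold below KO and 2.49-fold below WT. In bulk tissue, fewer cells of a type and less RNA per cell cannot be told apart.

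The median member row stood at 102 normalized reads for WT and 56 for mimic, with KO above both. Only 5 rows had a mean of at least 1000 over the libraries and 31 had a mean of at least 100. WT listed 1 member row at 0, KO 4 and mimic 14, beside 6, 39 and 56 of all 471 rows. Of the 63 member rows 49 were above 0 in all libraries, beside 345 of the 408 other rows. A filter on the mean, at least 10 over the libraries, left 52 member rows of 415 in the whole table. Of the 52, 44 were at 10 or more in each library, 7 in a pair of libraries and 1 in a single one. The 11 rows removed were miR-540-3p, miR-431-3p, miR-433-5p, miR-1197-3p, miR-376c-5p, miR-376a-5p, miR-381-5p, miR-544-3p, miR-668-3p, miR-377-5p and miR-541-3p. None of these 11 rows exceeded 18 in any library, and 10 of them were listed at 0 in mimic.

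**Figure D1:**
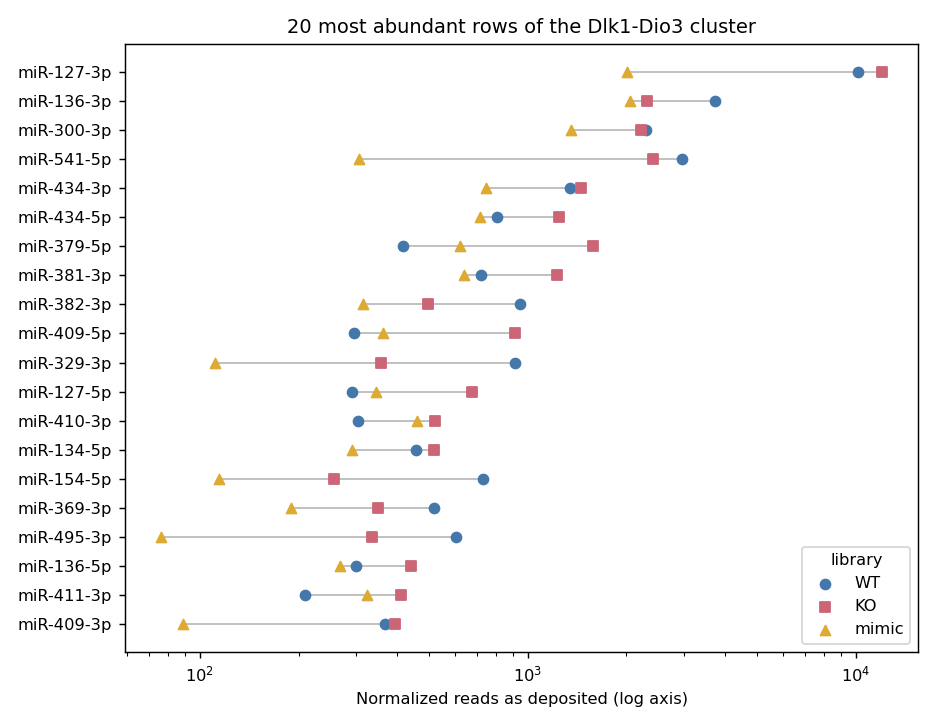
Normalized reads as deposited (log axis) for the 20 cluster rows with the highest mean, with 1 point per library (circle WT, square KO, triangle mimic) joined by a line. miR-127-3p lies far to the right in WT (10203) and KO (12073) but at 2006 in mimic, level with miR-136-3p, and mimic is the lowest point in most rows.

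The miRNAs opposite Rtl1 made up the largest part of the cluster's reads, 53.2% for WT, 54.3% for KO and 48.9% for mimic. In mice these miRNAs are perfectly complementary to Rtl1, a gene derived from a retrotransposon and needed in the placenta, and direct cleavage of its transcript. miR-127-3p, the most abundant member, had 10203 normalized reads in WT and 12073 in KO, against 2006 in mimic. It held 32.3% of the cluster's reads for WT, 35.5% for KO and 15.8% for mimic, so its weight inside the cluster was lowest in mimic as well.

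Its neighbour miR-136-3p did not follow it: WT held 3725, KO 2310 and mimic 2047. Inside the cluster miR-136-3p held 11.8%, 6.79% and 16.1%, and in mimic it was the most abundant member. miR-136-5p was 300, 440 and 268 in the same order. The miR-434 arms were closer together, and for miR-434-3p WT held 1343, KO 1455 and mimic 747. miR-434-5p was 805, 1245 and 717. miR-431-5p had 48 for WT and 51 for mimic, with KO at 2.85 times WT. miR-433-3p was 71, 106 and 25. Over the 8 of 10 Rtl1-antisense rows that passed the filter, the median log2 ratio was 0.56 for KO against WT and -0.97 for mimic against KO. All 8 had lower values in mimic than in KO, beside 60.5% of all rows, and 3 of them (37.5%) were at least 2-fold lower, beside 28.2% of all rows.

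Before Rtl1 in the direction of the plus strand lie miR-673, miR-493, miR-337, miR-540 and miR-665. Their 7 rows together held 2.37% of the cluster's reads for WT, 1.64% for KO and 1.38% for mimic. miR-337-3p was 256 in WT and stood low in both knockout libraries, at 71 in KO and 61 in mimic. The other arm, miR-337-5p, lay near the WT level in KO, at 0.881 times WT, and was low in mimic, with 244 in WT and 62 in mimic. miR-540-5p had the same shape, with 147 in WT and 28 in mimic, and KO at 0.939 times WT. miR-665-3p was 66, 85 and 8, 10.6-fold lower in mimic than in KO. miR-673-5p was 12, 28 and 8, and miR-493-5p was 7, 15 and 8, both near the lower end of the measured range.

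Past Rtl1 in the direction of the plus strand, the miRNAs from miR-379 to miR-410 form a dense polycistron. Its transcription in neurons is driven by the factor Mef2, and it is known for regulating dendrites. Its first part, from miR-379 to miR-667, held 10% of the cluster's reads for WT, 12.7% for KO and 13.5% for mimic. miR-379-5p, from the first precursor of the run, was 417 for WT, 1579 for KO and 620 for mimic. miR-494-3p was 31, 247 and 65, 7.97-fold higher in KO than in WT. miR-329-5p was 73, 307 and 65. All 3 shared a peak in KO with WT and mimic far below it.

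miR-329-3p, miR-495-3p and miR-411-3p took other courses. miR-329-3p was 916 for WT, 357 for KO and 111 for mimic. miR-495-3p had the same order of libraries, at 606, 336 and 76. miR-411-3p, with the seed it shares with miR-379-3p, had 209 for WT and 410 for KO, with mimic at 1.55 times WT as deposited. miR-379-3p was 1.66 times higher in KO, at 206, than in WT, and stood at 78 in mimic, below WT, so that these 2 miRNAs of 1 seed lay in different orders as deposited. With equal totals the log2 ratio of mimic to WT for miR-411-3p turned to -0.18. The miR-299a arms were level in WT and KO and low in mimic, with miR-299a-3p at 326 in KO, 1.1 times WT, and 123 in mimic. miR-299a-5p was 131 in WT and 44 in mimic, with KO at 1.05 times WT. Others of this stretch were scarce: miR-543-3p was 103, 120 and 34, miR-323-3p was 91, 61 and 47, and miR-1193-3p was 64, 66 and 25.

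The second part, from miR-376 to miR-410, held 34.4% of the cluster's reads for WT, 31.4% for KO and 36.2% for mimic. miR-541-5p was 2949 for WT, 2412 for KO and 306 for mimic, 7.88-fold lower in mimic than in KO. miR-382-5p was 322 in WT and 44 in mimic, with KO at 1.15 times WT and mimic 8.39-fold below KO. By contrast miR-300-3p, of similar level to miR-541-5p in KO, was 2291, 2208 and 1356. Members of this stretch thus differed widely in how far mimic lay below KO.

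miR-381-3p was 719 for WT, 1225 for KO and 641 for mimic, with WT and mimic near each other. miR-134-5p, which limits the size of dendritic spines through Limk1, was 455, 516 and 291. miR-410-3p, the last precursor of the run, was 304, 523 and 458, with mimic above WT as deposited (log2 ratio 0.59) and below it with equal totals (-0.21). miR-154-5p was 732, 256 and 114, and miR-369-3p was 518, 350 and 189, both stepping down from WT to KO to mimic. The miR-376 rows were low, with miR-376a-3p at 76, 85 and 65, and miR-376c-3p at 55, 116 and 69. miR-376b-5p had 60 for KO and 58 for mimic, with WT 2.07 times KO. miR-376c-5p had a value of 3 for WT and was listed at 0 for KO and mimic. miR-487b-3p was 102, 60 and 59. miR-377-3p was 209 in KO, 0.977 times WT, and 61 in mimic. miR-496a-3p stood at 44 for both WT and mimic, with KO at 3.14 times that level.

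The comparison of KO with WT addresses what the loss of mir-10b changes, in a pair of libraries that also differ in the diabetic label. Over all tested rows, 21.2% lay at least 2-fold above WT in KO and 9.64% at least 2-fold below. Of the 52 cluster rows past the filter, 12 (23.1%) were higher, 4 (7.69%) were lower and 36 lay between, which is close to the table as a whole. Their median log2 ratio was 0.21, beside 0.13 for all 415 rows. With equal totals the same 2 medians were -0.53 and -0.60. Of the 34 cluster rows above WT in KO, 18 then turned to below it. The share of rows below WT in KO thereby went from 34.6% to 69.2% in the cluster. Over all rows it went from 46% to 71.1%. These turns follow from the shift in scale and do not set the cluster apart from the table.

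Single members nevertheless lay far apart between KO and WT. Among rows averaging 100 or more, the highest log2 ratios were those of miR-494-3p (2.95), miR-329-5p (2.06), miR-379-5p (1.92) and miR-409-5p (1.63). miR-409-5p was 295 for WT, 914 for KO and 362 for mimic. Of these 4, 3 are 5p arms. The lowest were miR-337-3p (-1.84), miR-154-5p (-1.51), miR-329-3p (-1.36) and miR-382-3p (-0.94). For miR-382-3p WT held 950 and mimic 315, with KO at 0.521 times WT. With equal totals the first 3 of the higher group remained above 1 and miR-409-5p came to 0.89.

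Mimic against KO places an injected knockout beside a knockout for which no treatment is labelled. Over all tested rows, 13.3% lay at least 2-fold above KO in mimic and 28.2% at least 2-fold below. Of the 52 cluster rows, 0 were higher, 29 (55.8%) were lower and 23 lay between. Their median log2 ratio was -1.36, beside -0.31 for all rows and -0.15 for the 363 rows outside the cluster. Values in mimic were below those in KO for 49 of the 52 rows (94.2%), beside 60.5% of all rows. With median-of-ratios factors these shares were 84.6% and 50.6%. As deposited the 3 exceptions were the scarce miR-758-3p, miR-369-5p and miR-380-3p. miR-758-3p was 21 for WT, 14 for KO and 19 for mimic, miR-369-5p was 25, 22 and 28, and miR-380-3p was 30, 49 and 56.

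With no filter 35 of 63 rows were lower, beside 29.3% of all rows, and the median was -1.37, beside -0.29. With a mean of at least 100 there were 18 of 31 lower rows, 58.1%, beside 26.8% of all 302 rows of that level. In each of the 4 segments that had rows, taken along the plus strand, the median was negative. It was -1.73 before Rtl1, -0.97 opposite Rtl1, -1.40 from miR-379 to miR-667 and -0.93 from miR-376 to miR-410. Without miR-127-3p the sum of the remaining rows came to 21941 for KO and 10690 for mimic, which was 2.05-fold lower. The sum was therefore lower in mimic with and without the most abundant member.

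**Figure D2:**
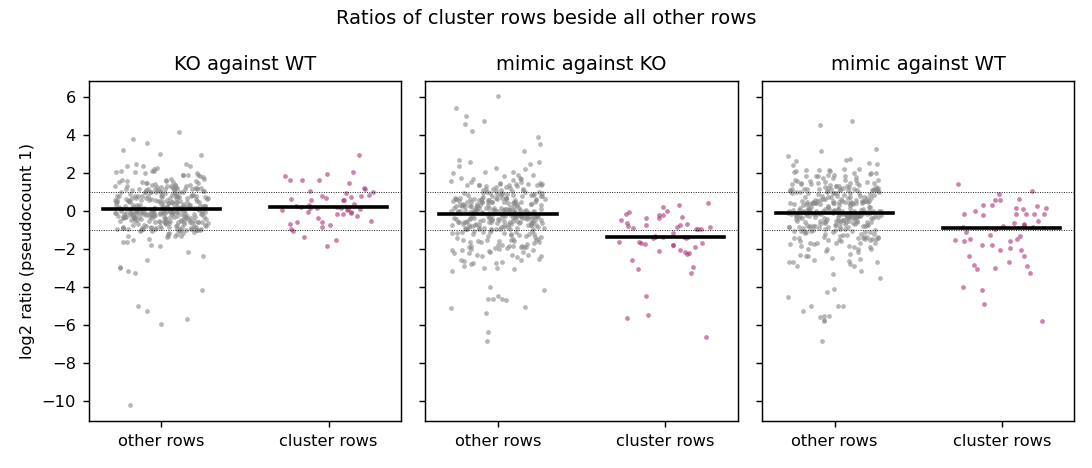
Log2 ratios with a pseudocount of 1 for the 52 cluster rows and the 363 other rows past the filter, with 1 point per row, a bar at the median and dotted lines at a 2-fold difference. In mimic against KO the cluster median is -1.36 with no row above the upper line, while in KO against WT (0.21) it lies beside the median of the other rows (0.08).

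The size of the difference varied among members. After the 4 rows listed at 0 in mimic, the lowest ratios at a mean of at least 100 were miR-382-5p (-3.04), miR-541-5p (-2.97), miR-127-3p (-2.59) and miR-540-5p (-2.26). At the other end were miR-136-3p (-0.17), miR-410-3p (-0.19), miR-337-3p (-0.22) and miR-411-3p (-0.34). Among the rows past the filter, those listed at 0 in mimic were miR-485-3p, at 55 in WT and 98 in KO, miR-485-5p, at 29 and 43, miR-667-3p, at 15 and 49, and miR-666-5p, at 17 and 21. Both arms of miR-485 were therefore listed at 0 in mimic. Leaving out these 4 rows gave a median of -1.25.

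Mimic set beside WT measures the distance of the injected knockout from the intact genotype. Over all tested rows, 19.8% lay at least 2-fold above WT in mimic and 25.8% at least 2-fold below. Of the 52 cluster rows, 2 (3.85%) were higher, 25 (48.1%) were lower and 25 lay between. Their median log2 ratio was -0.90, beside -0.14 for all rows, and with no filter it was -1.32 beside -0.18. The 2 higher rows were miR-380-5p, at 7 for WT, 28 for KO and 20 for mimic, and miR-494-3p. The lowest ratios at a mean of at least 100 were miR-541-5p (-3.26), miR-329-3p (-3.03), miR-495-3p (-2.98) and miR-382-5p (-2.84). This comparison shares its libraries with the other 2, so its values are not separate evidence.

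Read over the 3 libraries as deposited, mimic was the lowest value in 38 of the 52 cluster rows (73.1%), beside 39.7% of the 363 other rows. KO was the highest in 33 (63.5%), beside 36.9%. A descent from WT to KO to mimic was seen in 16 rows, 30.8% beside 18.5% of the other rows, and an ascent through the same order in 1, miR-380-3p, 1.92% beside 15.2%. WT was the highest in 17 rows, 32.7% beside 31.4%. The places of KO and WT in these orders depend on the scale. With equal totals KO was below WT in 36 of the 52 cluster rows, 69.2% beside 71.1% of all rows.

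**Figure D3:**
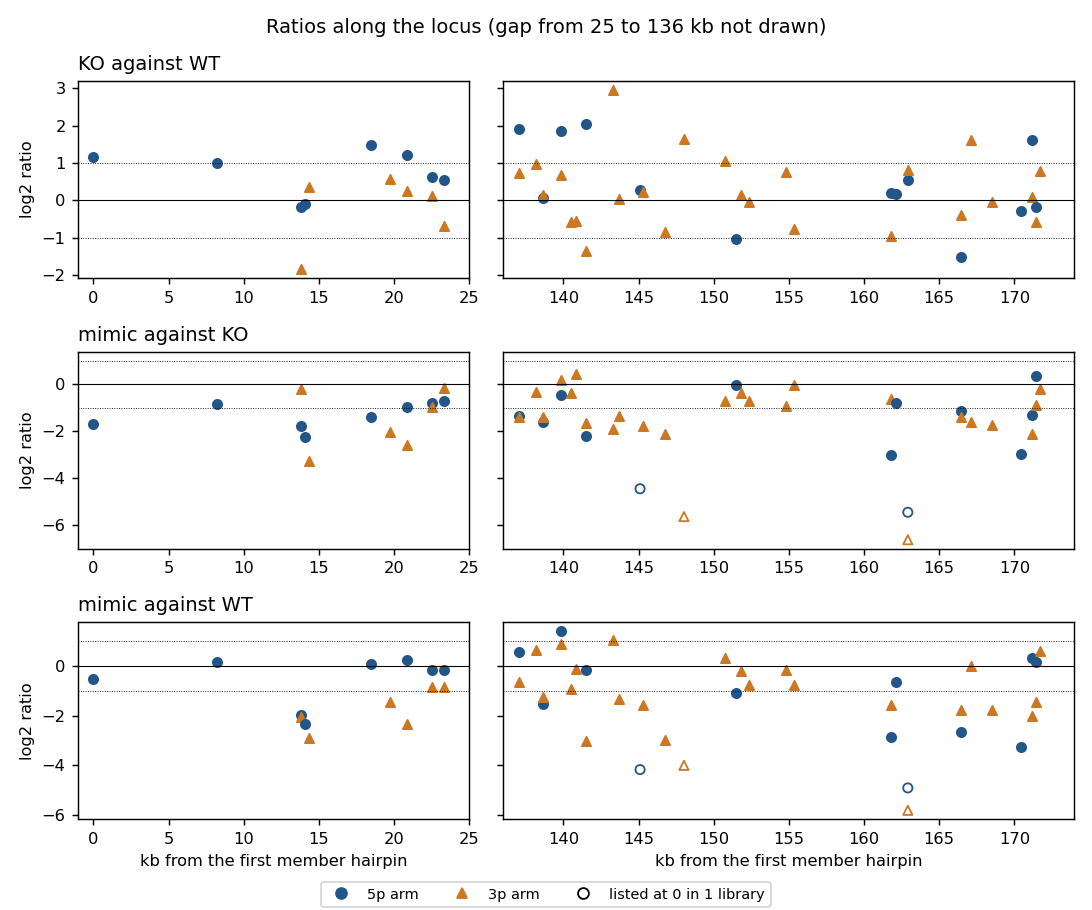
Log2 ratios of cluster rows past the filter against the distance in kb from the first member hairpin, for the 3 comparisons, with 5p arms as circles, 3p arms as triangles and open symbols for rows listed at 0 in 1 of the libraries compared. The stretch between the 2 groups of precursors is not drawn. In mimic against KO points lie below 0 along both stretches, with no point above 1.

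The ratios were also set against position within the locus. Spearman's rho between the hairpin start and the log2 ratio over the 52 rows was -0.17 between KO and WT, 0.02 between mimic and KO and -0.12 between mimic and WT. These rows share libraries and, in pairs of arms, a precursor, so the values are descriptions. Just outside the named list, miR-3072-3p, at chr12:109747878-109747960, had a value of 7 for WT and was listed at 0 for KO and mimic. miR-1247-5p, farther on at chr12:110278048-110278129, was 46 in WT, 7 in KO and listed at 0 in mimic, so neither of these neighbours was higher in KO.

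The arms of 1 precursor are cut from the same hairpin, so their ratio does not depend on the scaling of a library. In KO the balance lay more towards the 5p arm than in WT. Of 13 precursors with both arms past the filter, the ratio of 5p to 3p was higher in KO than in WT for 10, at least 2-fold for 7, and at least 2-fold lower for 1, miR-154. The median difference was 1.14 on the log2 scale. Among the precursors outside the cluster this ratio was higher in KO than in WT for 82 and lower for 47. At least 2-fold higher were 43 (33.3%) of them and at least 2-fold lower 20 (15.5%), with a median of 0.49. The direction was thus also present outside the cluster. Arm ratios were 2-fold or more apart between KO and WT in 61.5% of the cluster's precursors and 48.8% of the others. Between mimic and KO these shares were 33.3% and 49.6%, and between mimic and WT 50% and 51.9%. In the cluster these shares rest on 8 of 13, 4 of 12 and 6 of 12 precursors, too few to set the cluster apart from the others.

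Among the precursors with both arms averaging 100 or more, miR-329 was one whose arms lay far apart. Its 5p arm made up 7.38% of the reads of both arms for WT, 46.2% for KO and 36.9% for mimic. The 5p share of miR-409 was 44.6% for WT, 69.9% for KO and 80.3% for mimic, with miR-409-3p at 367, 394 and 89, so the more abundant arm differed between WT and the other libraries. For miR-127 the 5p share was 2.78%, 5.29% and 14.6%. miR-127-5p was 292 in WT and 344 in mimic, with KO at 2.31 times WT, while miR-127-3p was lower in mimic. For miR-382 the 5p share was 25.3%, 42.7% and 12.3%, and for miR-337 48.8%, 75.2% and 50.4%, both highest in KO. miR-136 had 7.45%, 16% and 11.6%, and miR-379 had 77.1%, 88.5% and 88.8%.

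The remaining precursors of this level differed less or in the other direction. The 5p share of miR-154 was 79.7% for WT, 64.5% for KO and 68.3% for mimic. Its other arm, miR-154-3p, was 186 in WT and 53 in mimic, with KO at 0.758 times WT. The 5p share of miR-434 was 37.5%, 46.1% and 49%, and that of miR-299a was 30.7%, 29.6% and 26.3%. Between mimic and KO the arms had no common direction. The 5p to 3p ratio was higher in mimic for 6 and lower for 6 of 12 precursors, a median difference of -0.09. Among the precursors outside the cluster this ratio was higher in mimic for 59 and lower for 70, with a median of -0.11. miR-485, with both arms listed at 0 in mimic, has no such ratio there. The hairpins of miR-329, miR-127, miR-382 and miR-409, in which the 5p to 3p ratio differed most on the log2 scale between any pair of libraries (3.41, 2.58, 2.39 and 2.33), are shown from RefSeq, 5′ to 3′, with the mature arms in capitals.
mir-127: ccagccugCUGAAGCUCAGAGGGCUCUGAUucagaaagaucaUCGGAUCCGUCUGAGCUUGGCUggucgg
mir-329: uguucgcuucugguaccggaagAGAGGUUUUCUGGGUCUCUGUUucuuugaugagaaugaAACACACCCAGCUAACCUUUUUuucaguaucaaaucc
mir-382: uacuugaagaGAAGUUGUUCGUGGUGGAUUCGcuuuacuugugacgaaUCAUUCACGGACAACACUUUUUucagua
mir-409: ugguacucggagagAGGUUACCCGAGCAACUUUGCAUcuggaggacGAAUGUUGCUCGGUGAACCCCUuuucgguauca
These hairpins lie at chr12:109592846-109592915, chr12:109713481-109713577, chr12:109733771-109733846 and chr12:109743158-109743236 of GRCm38, in the order shown.

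**Figure D4:**
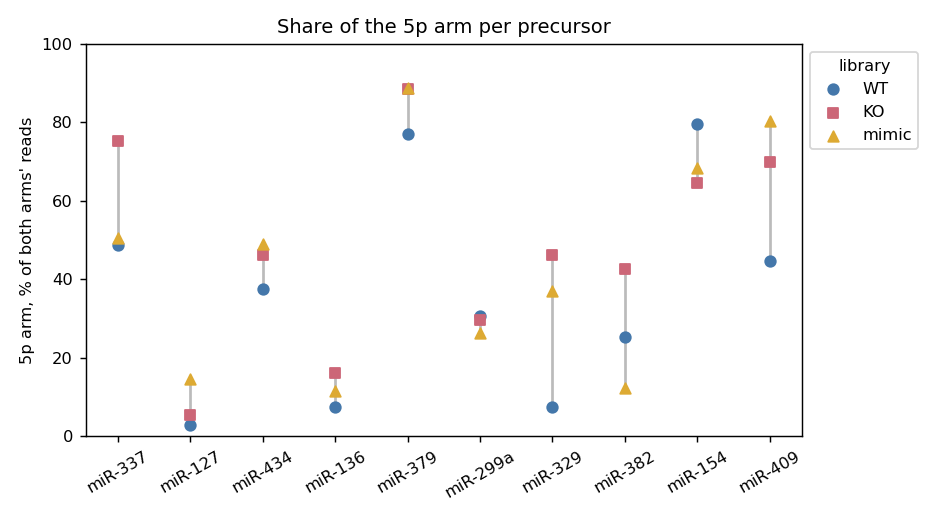
Share of the 5p arm in the summed normalized reads of both arms, in percent, for the 10 precursors whose arms each had a mean of at least 100, with 1 point per library. miR-329 spans from 7.38% in WT to 46.2% in KO, while miR-299a stays between 26.3% and 30.7%.

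The ratios were set beside the base composition of the mature sequences. Over 49 cluster rows past the filter that had a sequence, Spearman's rho between the percentage of G and C bases and the log2 ratio was -0.47 between mimic and KO, 0.31 between KO and WT and -0.21 between mimic and WT. Over 292 other rows it was -0.23, -0.14 and -0.36. The points share libraries and the values are descriptions. For mimic against KO the relation thus had the same sign inside and outside the cluster.

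Grouped by composition, 14 of 19 cluster rows with 50% or more G and C bases were at least 2-fold lower in mimic than in KO, with a median of -1.78. These include miR-127-3p (59.1% G and C) and miR-665-3p (65%). Of 19 rows with 40% to 50%, 10 were lower, with a median of -1.33. Of 11 rows with under 40%, such as miR-136-3p (36.4%) and miR-410-3p (38.1%), 4 were lower, with a median of -0.71. Outside the cluster the medians in the same order were -0.38, -0.23 and 0.07, with 33.1%, 22.7% and 19.7% of rows lower. The cluster's median was below that of the other rows in each of the 3 classes. The part of base composition in the differences between libraries was not tested.

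**Figure D5:**
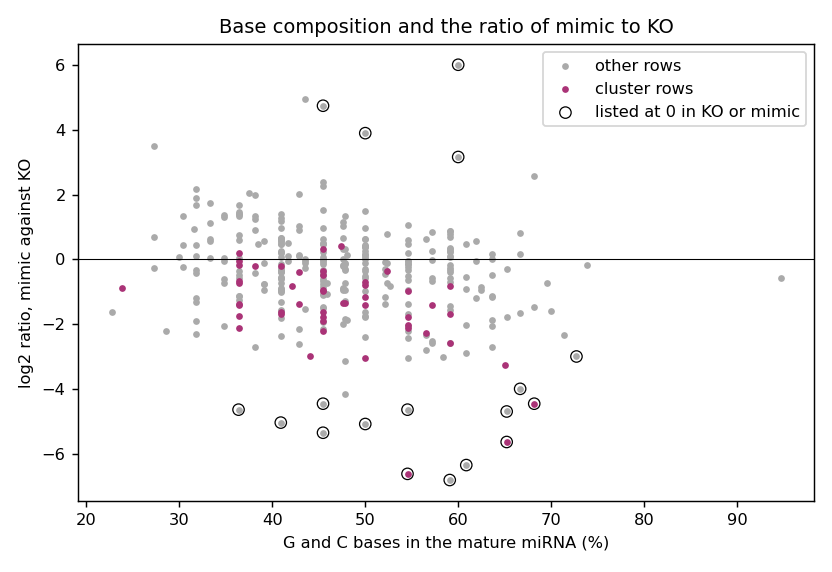
Percentage of G and C bases in the mature miRNA against the log2 ratio of mimic to KO, for 49 cluster rows and 292 other rows past the filter, with rings around rows listed at 0 in either library. Cluster rows with 50% or more G and C bases have a median of -1.78 and those with under 40% a median of -0.71.

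Markers of other cell types differed between the libraries too. The smooth muscle rows, 9 in number, summed to 574316 for WT, 1061385 for KO and 2249802 for mimic, and in 6 of 8 past the filter mimic exceeded KO by 2-fold or more, opposite to the cluster. The higher sum of KO over WT was carried by miR-143-3p, with 294225 for WT and 954512 for KO. Of the 8 rows, 3 were at least 2-fold higher and 2 at least 2-fold lower in KO than in WT. Values below WT were seen in 5 of the 8, beside 46% of all rows, and the median log2 ratio was -0.46. The 5 rows of mesenchyme and fibroblasts summed to 71469, 85250 and 62963. All 5 rows had values below KO in mimic, as did most cluster rows, beside 60.5% of all rows. The median log2 ratio was -0.84. Of these 5 rows 1 was at least 2-fold lower, miR-214-3p, with 2749 for WT, 2211 for KO and 371 for mimic. None of these 5 rows was at 0 in any library.

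The 10 neuronal rows summed to 2901 for WT, 3099 for KO and 2589 for mimic, with 2 higher and 1 lower in mimic than in KO and a median of 0.10. miR-124-3p, which defines neurons, was 168, 77 and 100, above 0 in each library. The 5 rows of white blood cells summed to 36491, 19438 and 51804, of which miR-142a-5p held 31674, 14200 and 47347. In mimic 3 of these 5 rows had values below KO, beside 60.5% of all rows, while 1 was at least 2-fold higher and 0 at least 2-fold lower. The median log2 ratio of mimic to KO was -0.58, opposite to the sum. The 4 rows of red blood cells summed to 2198, 1855 and 3129, with a median of 0.26 for mimic against KO. The 15 epithelial rows summed to 1545959, 2571267 and 2471010, with a median of -0.03 for mimic against KO. The part of these cell types in the cluster's values was not tested.

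Imprinted miRNAs from other loci stood in both directions in mimic. miR-335, from the imprinted gene Mest, was higher in mimic, with miR-335-5p at 185 in WT and 574 in mimic, a log2 ratio of 1.36 against KO. For miR-335-3p KO held 85 and mimic 273, at a log2 ratio of 1.67. miR-296-5p, of the Gnas region, was 18 in WT, 15 in KO and listed at 0 in mimic, and miR-298-5p was 13, 11 and listed at 0. The 19 rows of the miR-466, miR-467, miR-669 and miR-297 families, of the imprinted gene Sfmbt2, summed to 519, 281 and 361, and the median of the 10 past the filter was 0.13 for mimic against KO.

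A few members share a seed with a miRNA from elsewhere in the genome. miR-329-3p carries the seed ACACACC, as does miR-362-3p, which was 4081 for WT, 2463 for KO and 3679 for mimic. The pair together was thus led by miR-362-3p, at levels above those of miR-329-3p in each library. miR-377-5p, with 6 in WT, 18 in KO and a listing at 0 in mimic, has the seed GAGGUUG of miR-672-5p, which was 185, 254 and 28. miR-410-3p shares AUAUAAC with miR-344d-3p, which had 2 for WT and was listed at 0 for KO and mimic. Among the 385 of 471 rows with a mature sequence, miR-410-3p thus held nearly all reads of that seed.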

How the data were processed

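Small RNA from mouse colonic mucosa was sequenced in 3 libraries (WT, KO, mimic). The deposited values are a score: normalized miRNA reads rounded to whole numbers by the authors, per the file headers. The table's 2 columns of the unit other hold differences the authors took, KO less WT and mimic less KO, per the file headers, and equalled the subtraction with 0 exceptions. They were not used further. Per the submitters' processing notes the reads were handled on mm10. The aligner, counting tool and normalization method are not stated there. No step gave back whole reads (at best 37.3%, 40.6% and 39.8% of low values within a tolerance of 0.1), so depth is unknown and no intervals are given.

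Members were found by name. Rows with a mean below 10 were removed (56 of 471), a pseudocount of 1 was added and 2-fold was the limit. The 2-fold calls were tested on simulated data with high values and changes larger than that limit. This checks the computation only and does not measure how reliable the calls made here are. Named members are the 12 highest by mean, 4 rows at either end of each comparison at a mean of at least 100, precursors with both arms at that level, rows at 0 with 20 or more elsewhere, and shared seeds; others were named to account for members. Members, lists and rules were chosen with earlier results of these data known. Base composition, arm balance, position and outside seeds were looked at after the values. Sequences are from RefSeq and annotation from GENCODE M21, both GRCm38. Python 3.11.15, numpy 2.4.6, scipy 1.17.1 and matplotlib 3.10.9 were used.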

Additional observations from a re-analysis of the deposited data

How the results depend on the processing

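No paired analysis was possible because each group has 1 library. Equal totals turned the cluster's median for KO against WT to -0.53 and gave 4 higher and 13 lower rows of 52, beside 7.23% and 34% of all rows; for mimic against WT they gave a median of -1.70, beside -0.93 for all rows, and 0 higher rows, beside 7.23%. Median-of-ratios factors moved none of the counts and medians of these comparisons by over 1.5 times, and shares of a library do not depend on them. With a mean of at least 100, where fewer rows are counted, 5 of 31 were higher in KO than in WT (19.2% of all rows), 18 lower in mimic than in KO (26.8%), and 1 higher (19.2%) and 16 lower (22.2%) in mimic than in WT. No filter gave 9 of 63 lower rows in KO, beside 15.9%. A 1.5-fold limit gave 19 higher and 8 lower in KO, beside 33% and 20.7% of all rows. It gave 5 higher in mimic than in WT, beside 27.2%. For mimic against WT a pseudocount of 10 gave 0 higher rows of 52, beside 17.8% of all rows. The more abundant arm of each precursor gave 1 of 39, beside 19.8%. Chosen after seeing the data, leaving out miR-127-3p gave a KO share of 0.27%, and leaving out rows at 0 changed no count by over 1.5 times. For mimic against KO, no filter gave 35 of 63 lower rows, beside 29.3% of all rows, and the 1.5-fold limit 40 of 52, beside 40.5%. Under each alternative run 0 cluster rows were higher, beside 12% to 22.4% of all rows. Of 91 ratios of named members, equal totals moved 62 by over 1.5 times and reversed 0 of those at least 2-fold apart. Both counts follow from the shift, which is nearly the same for every row of a comparison and smaller than 2-fold. They therefore do not show that the ratios are stable. The unknown depth limits rows near 10 most.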
